A study of Mus musculus with 14 samples.

Results

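The 10 heat shock chaperone genes Hspa1a, Hspa1b, Hspa5, Hspa8, Hsp90aa1, Hsp90ab1, Dnajb1, Hsph1, Hspd1 and Hspe1 were taken by symbol from the table of 14329 genes, and each of the 10 symbols was found. They were followed in microglia of the lumbar dorsal horn, sorted as CD45low, CD11b+ and CX3CR1+ from male and female mice aged 6 months, on the fifth day after serum transfer. TASTPM mice were heterozygous transgenic mice that carry, among others, human APP with the Swedish mutation under the Thy-1 promoter, which is active in neurons and not in microglia, and WT mice were C57BL/6. Mice received arthritogenic K/BxN serum or control serum from KRN/C57 mice, which gave 4 libraries each of WT K/BxN ST and TASTPM K/BxN ST and 3 each of WT Control ST and TASTPM Control ST, made from 2000 sorted cells each. The methods of the study count individual mice as replicates, while the labels give neither the mouse nor its sex for each library. Library numbers within TASTPM K/BxN ST follow the sample labels, and elsewhere they only name the libraries.

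Chaperones bind proteins that are not yet folded or have lost their fold and help them to reach or regain it. HSP70 proteins work in cycles of ATP hydrolysis with HSP40 cochaperones, which bring the client, and HSP110 proteins, which exchange the nucleotide, while HSP90 takes over partly folded clients such as kinases and steroid receptors. Heat, oxidation or misfolded protein in the cytosol frees the transcription factor HSF1, which binds heat shock elements in the promoters of inducible chaperones, whereas misfolded protein in the endoplasmic reticulum (ER) acts through the unfolded protein response and ER stress elements. In brain tissue, tissue dissociation and warm incubation are also known to raise inducible chaperones in microglia. According to the methods of the study, the tissue was homogenised and the cells were isolated on ice.

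Of the 10 promoters, 4 are printed because the results turn on their genes, with the letters of these 2 kinds of element marked where they occur. The sequences were read from the GRCm39 genome and run from 130 bases before the transcription start to 10 bases from the start on, in the direction of transcription. Capitals mark a heat shock element pair (GAA and TTC in either order with any 2 bases between them) or an ER stress element (CCAAT and CCACG with any 9 bases between them). Hspa1b lies at chr17:35178205-35178344 on the minus strand, Hsph1 at chr5:149559797-149559936 on the minus strand, Hspd1 at chr1:55127174-55127313 on the minus strand and Hspa5 at chr2:34661974-34662113 on the plus strand.
Hspa1b: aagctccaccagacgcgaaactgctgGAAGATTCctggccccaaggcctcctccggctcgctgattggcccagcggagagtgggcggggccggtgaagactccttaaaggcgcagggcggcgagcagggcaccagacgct
Hsph1: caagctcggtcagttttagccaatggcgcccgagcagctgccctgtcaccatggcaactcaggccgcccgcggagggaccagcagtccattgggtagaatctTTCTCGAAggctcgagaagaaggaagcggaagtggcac
Hspd1: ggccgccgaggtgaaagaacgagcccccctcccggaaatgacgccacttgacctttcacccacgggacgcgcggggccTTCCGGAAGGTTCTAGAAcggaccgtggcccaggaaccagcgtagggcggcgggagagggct
Hspa5: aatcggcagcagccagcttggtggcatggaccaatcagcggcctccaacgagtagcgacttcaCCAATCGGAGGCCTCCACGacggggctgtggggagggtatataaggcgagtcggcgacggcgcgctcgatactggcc

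Over the 300 bases searched in each gene, from 250 before the start on, a heat shock element pair occurred in 6 of the 10 chaperone promoters, those of Hspa1a, Hspa1b, Dnajb1, Hsph1, Hspd1 and Hspe1. It occurred in 14.3% of the 21757 protein-coding promoters of the same length. Both orders of the pair read the same on either strand, and pairs that overlapped were counted each. Hspd1 and Hspe1 are transcribed away from each other from starts 108 bases apart, so that the printed run of 3 overlapping pairs is a single element shared by both genes, and such a run of at least 3 alternating units was found in 0.478% of all promoters. Hspa1a and Hspa1b carried the pair at the same place, that in capitals for Hspa1b, and their 300 bases differed at 4 positions. The ER stress element, searched on both strands, was found in Hspa5 alone among the 10 genes, from position -67 to -49 relative to its start, and in 0.124% of all promoters. Hspa8, Hsp90aa1 and Hsp90ab1 held neither motif in this window, which says nothing of elements elsewhere.

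**Figure D1:**
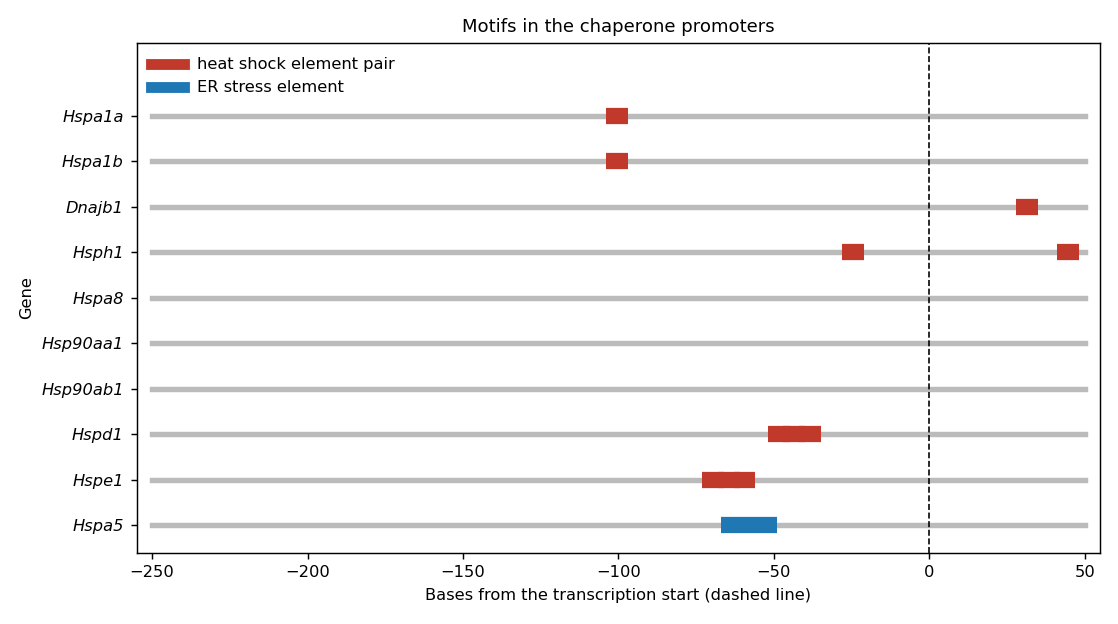
Map of motif matches in the promoters of the 10 chaperone genes, with the position in bases from the transcription start on the horizontal axis. Red blocks are heat shock element pairs, present in 6 genes, and the blue block is the ER stress element of Hspa5, while Hspa8, Hsp90aa1 and Hsp90ab1 have no block.

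The libraries held 14223015 to 20239175 reads on genes. Microglia markers took 2.21% to 8.01% of reads, with no library below 34656 normalized counts of P2ry12. Libraries 1 and 2 of WT K/BxN ST and libraries 1 and 2 of TASTPM K/BxN ST stood apart, with 258065 to 536223 normalized counts of the myeloid gene Lyz2 against 8743 to 22933 in the other 10 libraries. Neutrophil and monocyte markers took 3.12% to 5.41% of the reads in these 4 libraries and 0.0577% to 0.139% in the other 10. Values without these 4 libraries are given for single genes where stated. The counts and medians of gene lists use all libraries. The sort of the study also excluded cells with Ly6C or CCR2 on their surface. Ly6c2 had 12898 to 29133 normalized counts in these 4 libraries and at most 17.8 in the other 10. In bulk RNA a change in the share of a cell type and a change in RNA per cell cannot be told apart.

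All 10 genes passed the filter of at least 10 reads in at least 7 libraries, and 9 of them had at least 10 reads in all 14 libraries, Hspa1a in 13. Levels between genes were compared as normalized counts per kilobase of transcript. Hspa8, which encodes the constitutive HSC70, was the highest, with a mean of 13992 ± 4438 per kilobase (SD, n = 14), and by this level it ranked 60 among all genes with a transcript length. Hspa5, encoding the ER chaperone BiP, with 4769 ± 997, and Hsp90ab1, the constitutive cytosolic HSP90, with 4379 ± 1038, came next. These 2 genes cannot be ordered, since Hspa5 was above Hsp90ab1 in 8 of 14 libraries, whereas Hspa8 was above Hspa5 in 14 of 14.

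A middle tier held the mitochondrial pair, the HSP70 partner Dnajb1 and the inducible HSP90 gene Hsp90aa1. Hspe1 had 866 ± 252 normalized counts per kilobase, Hspd1 841 ± 220, Dnajb1 746 ± 192 and Hsp90aa1 742 ± 267 (SD, n = 14 each). Neighbours in this tier did not keep their order, each being above the next in 6 to 8 of 14 libraries. The lowest tier held Hspa1b with 162 ± 191 per kilobase, Hsph1 with 118 ± 60.9 and Hspa1a with 55.2 ± 67.5, and Hspa1b was above Hsph1 in 7 of 14 libraries. Hsp90ab1 was above Hspe1 and Hsp90aa1 was above Hspa1b in each of the 14 libraries, so the 3 tiers did not mix at their borders. The spread between libraries, as SD over mean of the normalized counts, was 20.9% for Hspa5, 117.6% for Hspa1b and 122.2% for Hspa1a. The 10 genes together took 0.317% to 0.683% of reads, and Hspa5, Hspa8 and Hsp90ab1 alone made up 82.9% to 91.8% of that share.

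The heat-inducible HSP70 is encoded by 2 neighbouring genes with a single exon each, Hspa1a (chr17:35188166-35191132) and Hspa1b (chr17:35175412-35178214). Their coding sequences differ at 11 of 1926 aligned positions, and 38.1% of the 150-base windows of the Hspa1a transcript occur unchanged in Hspa1b, so the split of reads between them is uncertain. Hspa1b had 152, 247 and 81.2 normalized counts in WT Control ST and 476, 394 and 2120 in TASTPM Control ST. It had 994, 300, 204 and 135 in WT with K/BxN serum and 592, 267, 166 and 237 in TASTPM with K/BxN serum. Every TASTPM Control ST library thus lay above every WT Control ST library, the K/BxN ST groups overlapped, and the 2 highest values, 2120 and 994, each came from a single library of its group.

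Hspa1a had 157, 117 and 0 normalized counts in WT Control ST and 140, 69.9 and 800 in TASTPM Control ST. With K/BxN serum it had 333, 117, 35.8 and 54.5 in WT and 137, 74.2, 196 and 63.2 in TASTPM. The library with no read (WT Control ST library 3) allows up to 2.87 normalized counts, the value of 3 reads there, and it also had the lowest Hspa1b count. Red blood cell genes took 0.242% of its reads and at most 0.0276% in any other library, and their part in the low counts was not tested. All pairs of groups overlapped for Hspa1a. The counts were also summed over both genes, which removes the split but cannot restore shared reads left out of the counting, if any. The sums were 308, 365 and 81.2 in WT Control ST and 616, 464 and 2919 in TASTPM Control ST, again without overlap.

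Dnajb1, an HSP40 cochaperone of HSP70, had 2547, 3227 and 1316 normalized counts in WT Control ST and 2536, 2693 and 3834 in TASTPM Control ST. In WT K/BxN ST it had 2794, 2216, 1991 and 2479, and in TASTPM K/BxN ST 2555, 2050, 2837 and 3816. The 4 groups overlapped throughout, and the lowest value was again that of WT Control ST library 3.

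Hsph1 encodes HSP105, a nucleotide exchange factor of the HSP110 family. It had 133, 511 and 388 normalized counts in WT Control ST and 1053, 1064 and 1621 in TASTPM Control ST. With K/BxN serum it had 686, 546, 461 and 512 in WT and 797, 538, 1043 and 844 in TASTPM. TASTPM Control ST was the highest group, with each of its libraries above all other 11 libraries, and WT Control ST the lowest by its mean of 344 ± 193 (SD, n = 3). Hsph1 shares 956 exonic bases with the noncoding gene Gm73411 on the opposite strand. In 47 of the 49 pairs of a TASTPM and a WT library, over both sera, the TASTPM library was higher.

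Hspa8 had 25392, 33409 and 28686 normalized counts in WT Control ST and 38598, 29699 and 31967 in TASTPM Control ST. With K/BxN serum it had 37892, 29017, 25176 and 17742 in WT and 62485, 36625, 43727 and 28549 in TASTPM. All groups overlapped, and the highest count belonged to library 1 of TASTPM K/BxN ST, which also had the most Lyz2.

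Of the cytosolic HSP90 genes, Hsp90ab1 had 8812, 10003 and 10416 normalized counts in WT Control ST and 14280, 15473 and 15405 in TASTPM Control ST. With K/BxN serum it had 11078, 8139, 9901 and 8169 in WT and 15128, 13765, 14676 and 10462 in TASTPM. Only library 4 of TASTPM K/BxN ST fell below a WT library, so that TASTPM was higher in 48 of 49 pairs of libraries. The inducible Hsp90aa1 had 2133, 2058 and 2057 in WT Control ST and 2653, 4600 and 3171 in TASTPM Control ST, without overlap. In K/BxN ST it overlapped, with 2883, 1950, 1444 and 1920 in WT and 4296, 3390, 2211 and 1921 in TASTPM. Hsp90ab1 shares 266 exonic bases with Slc35b2 and 1617 with the noncoding gene Gm56882, which was not in the table, both on the opposite strand, and the counting was not stated to use strand, so reads on these bases cannot be assigned to one gene.

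Hspd1 and Hspe1 encode HSP60 and HSP10, which form the folding chamber of mitochondria. Hspd1 had 1482, 1844 and 1569 normalized counts in WT Control ST and 2280, 2238 and 2629 in TASTPM Control ST. With K/BxN serum it had 2155, 1530, 1663 and 1605 in WT and 3209, 2778, 1733 and 1806 in TASTPM. Hspe1 followed the same order in Control ST, with 650, 533 and 438 in WT and 842, 1105 and 733 in TASTPM. With K/BxN serum Hspe1 had 644, 631, 373 and 571 in WT and 856, 875, 557 and 573 in TASTPM. For both genes the Control ST groups did not overlap, and in TASTPM K/BxN ST the 2 higher values were those of the libraries with high Lyz2. The annotation lists 5 pseudogenes or related copies of Hspd1 and 7 of Hspe1, which could take reads from them, and the 2 genes share 143 exonic bases on opposite strands.

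Hspa5 had 23920, 27559 and 26177 normalized counts in WT Control ST and 37337, 22650 and 24965 in TASTPM Control ST. It had 18215, 17987, 20106 and 19520 in WT K/BxN ST, the lowest group, and 22217, 22663, 26031 and 21368 in TASTPM K/BxN ST. Each WT K/BxN ST library lay below each library of the other 3 groups. Hspa5 shares 2457 exonic bases with Rabepk on the opposite strand.

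**Figure D2:**
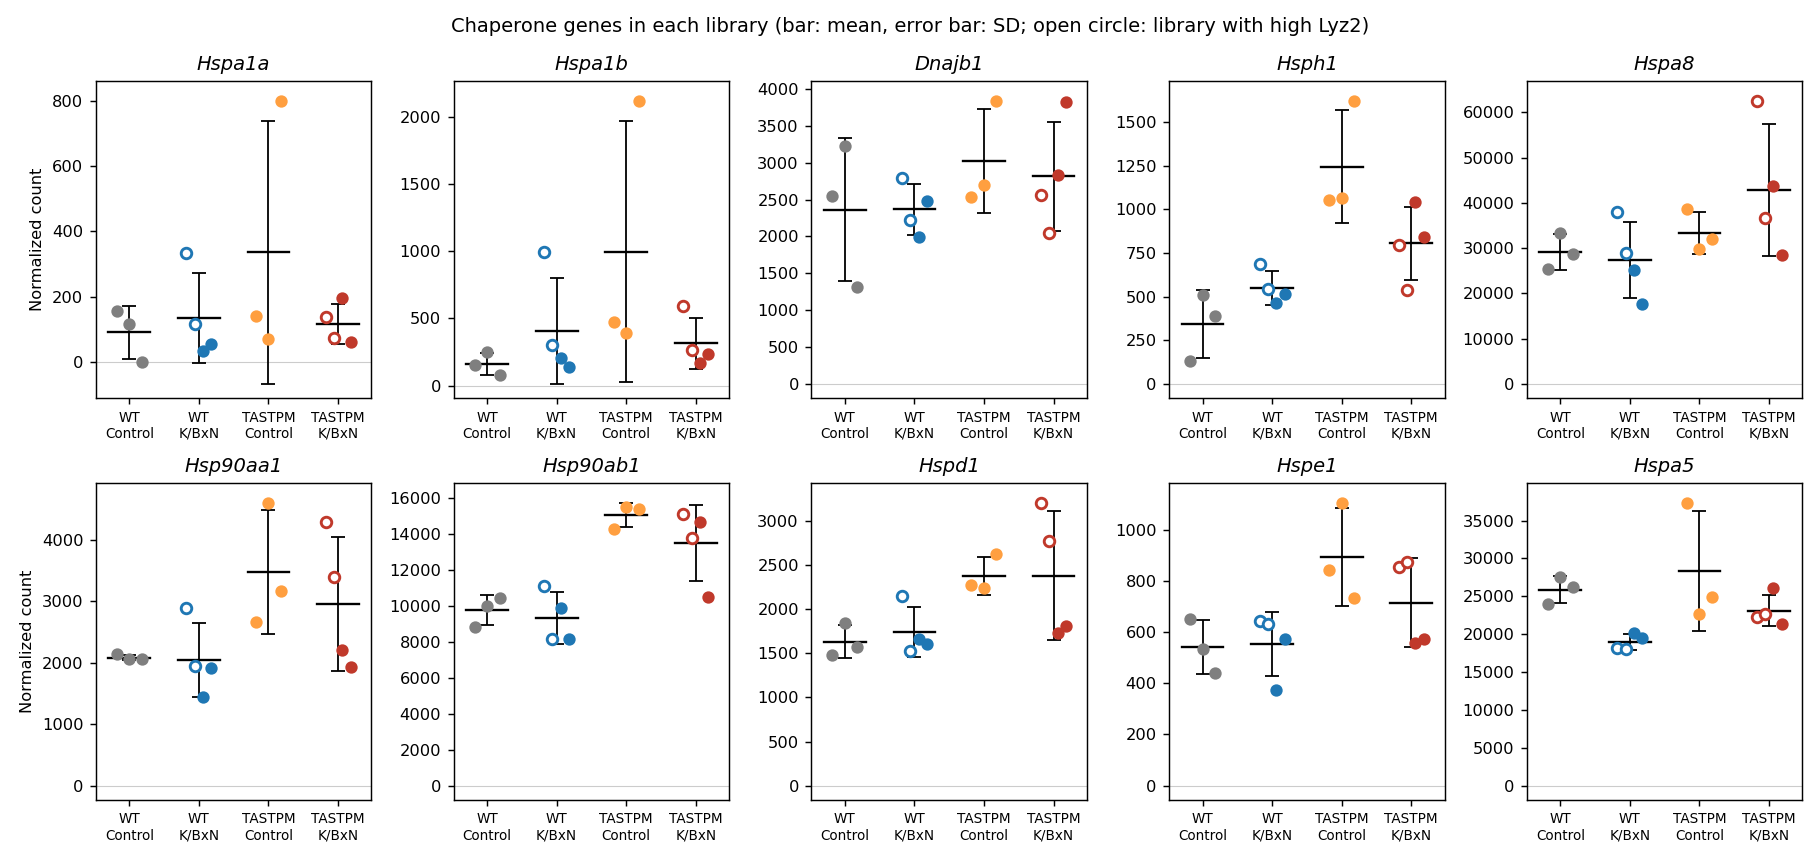
Normalized counts of the 10 chaperone genes in the 14 libraries, by group, with the mean and SD of each group. For Hsph1 and Hsp90ab1 the TASTPM Control ST points lie above all WT points, Hspa1a and Hspa1b each have 1 TASTPM Control ST library far above the rest (800 and 2120), and Hspa5 is lowest in WT K/BxN ST. Open circles are the 4 libraries with high Lyz2.

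The first comparison asked how TASTPM differed from WT microglia without arthritis. Between TASTPM Control ST and WT Control ST, all 10 chaperone genes had a positive log2 fold change, where 53.2% of all 12645 tested genes did, although Hspa5 was at -0.12 without TASTPM Control ST library 1. Their median was 0.66 against 0.04 over all tested genes. Of the 10 genes, 6 were higher at an unadjusted limma p below 0.05, where 3.41% of all tested genes were, and for the same 6 genes the groups did not overlap, where 4.97% of all tested genes lay higher without overlap. After adjustment limma called 0 chaperone genes and 0 genes in all (0%), edgeR called 0 (0% of all tested genes), and DESeq2 called Hsph1 alone of the 10, where it called 0.324% of all tested genes. At an unadjusted p below 0.05, 6 of the 10 genes were higher with edgeR, where 2.73% of all tested genes were, and 6 with DESeq2, where 3.35% were.

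Hsph1 had the smallest p among the 10 genes, at 2.03 on the log2 scale with a standard error of 0.42 (limma adjusted p = 0.383). DESeq2 on the recovered reads gave 1.85 with an adjusted p of 0.00821. For Hspa1b the log2 fold change was 2.33 with a standard error of 0.76 (limma adjusted p = 0.742). Among the abundant genes, Hsp90ab1 had 0.63 (standard error 0.19, limma adjusted p = 0.712), a mean ratio of 1.54. Hspe1 had 0.72, Hsp90aa1 0.70 and Hspd1 0.55, each with a limma adjusted p between 0.832 and 0.883. The remaining genes, Hspa1a with 2.92 (standard error 1.54, and 1.88 with edgeR, 1.87 with DESeq2 and 1.84 after adding 10 in place of 1), Dnajb1 with 0.43, Hspa8 with 0.20 and Hspa5 with 0.10, overlapped between genotypes. The value of Dnajb1 includes WT Control ST library 3, at 1316 normalized counts against 2547 and 3227 in the others of its group. That of Hspa8 includes TASTPM Control ST library 1, at 38598 against 29699 and 31967. For the 6 genes without overlap the two-sided exact permutation test gave p = 0.1, which is as low as 3 against 3 libraries can go.

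TASTPM Control ST library 3 held the highest counts of Hspa1a, Hspa1b, Dnajb1 and Hsph1 in all 14 libraries. Without it the log2 fold change of Hspa1b was 1.57 in place of 2.33, and the ratio of means was 2.72 in place of 6.23. That of Hspa1a was 1.15 in place of 3.69, and without WT Control ST library 3, which had no Hspa1a read, the log2 fold change of Hspa1a was 0.55 in place of 2.92. For Hsph1 and Hsp90ab1 the ratio of means was 3.08 and 1.53 without this library, and 3.62 and 1.54 with it. The number of genes higher at an unadjusted limma p below 0.05 was 3 without this library, without TASTPM Control ST library 2, or without WT Control ST library 3. Of the 12645 tested genes, 348, 327 and 662 were higher in these fits.

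Immediate early and dissociation genes, which respond within minutes to handling of the tissue, took 0.162%, 0.177% and 0.219% of reads in TASTPM Control ST and 0.166%, 0.152% and 0.148% in WT Control ST. Among the Control ST libraries the highest share was that of library 3 of TASTPM Control ST, where Fos had 0 and Jun 2338 normalized counts. The score of sex-linked genes, in which values above 0 are on the side of Xist, was 11.7, 11.8 and -1.33 in TASTPM Control ST and -7.15, -3.63 and 3.12 in WT Control ST. With this score as a covariate, Hspa1a was at 4.47 on the log2 scale, Hspa1b at 3.09, Hsph1 at 2.05, Hsp90aa1 at 0.91, Hspe1 at 0.89, Hsp90ab1 at 0.71, Hspd1 at 0.67, Dnajb1 at 0.48, Hspa8 at 0.44 and Hspa5 at 0.06. In this fit 7 of the 10 genes were higher at an unadjusted limma p below 0.05, where 441 of the 12645 tested genes were. Of the 19 tested genes of the immediate early list, 3 were higher and 1 lower in TASTPM Control ST at an unadjusted limma p below 0.05, where 3.41% and 2.16% of all tested genes were, with a median of 0.27 against 0.04. Klf4, a transcription factor of that list, had at least 83.6 normalized counts in each TASTPM Control ST library and was at 0 in all 3 WT Control ST libraries. With serum the median of the list was 0.21 in WT and 0.49 in TASTPM, against 0.06 and 0.01 over all tested genes, and 3 genes were higher and 0 lower in each, where 4.77% and 2.62% of all tested genes were higher. The smallest p belonged to Klf4 in WT, with 231, 112, 39.4 and 5.45 counts against 0, and to Junb in TASTPM (0.72, limma adjusted p = 0.964). Microglia markers took 6.35% to 7.56% of reads in TASTPM Control ST and 7.68% to 8.01% in WT Control ST, without overlap. Red blood cell genes took 0.00309% to 0.0072% in TASTPM Control ST and 0.00834% to 0.242% in WT Control ST, also without overlap. Border macrophage markers took 0.00116% to 0.0121% in TASTPM Control ST, the most in library 3, and 0.000721% to 0.00125% in WT Control ST. The part of tissue handling and of these marker shares in the difference was not tested.

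In mice with K/BxN serum, 9 of the 10 genes had a positive log2 fold change for TASTPM against WT, where 49.9% of all tested genes did, with a median of 0.39 against -0.00087 over all. Hsp90ab1 had 0.53 with a standard error of 0.17, and Hspa8 had 0.64 with a standard error of 0.26. These 2 of 10 genes were the ones higher at an unadjusted p below 0.05, where 1% of all tested genes were. Hspa5 was the gene without overlap, where 1.16% of all tested genes lay higher without overlap, with a log2 fold change of 0.28 (p = 0.0286 by two-sided exact permutation, which is as low as 4 against 4 libraries can go). Hsph1 had 0.52, Hsp90aa1 0.50, Hspd1 0.42, Hspe1 0.37, Dnajb1 0.22, Hspa1a 0.18 and Hspa1b -0.10. The limma adjusted p was 1.00 for each of the 10 genes, and limma, edgeR and DESeq2 called 0 of them (0% of all tested genes with each tool). At an unadjusted p below 0.05, 2 were higher with edgeR and 2 with DESeq2, where 0.783% and 1.06% of all tested genes were. Without the 4 libraries with high Lyz2, Hsp90ab1 had 0.46, Hspa8 0.74, Hsph1 0.95, Hspa5 0.25, Hsp90aa1 0.31, Hspd1 0.11, Hspe1 0.29, Dnajb1 0.57, Hspa1a 1.31 and Hspa1b 0.25. The immediate early and dissociation genes took 0.170% to 0.297% of reads in TASTPM K/BxN ST and 0.155% to 0.221% in WT K/BxN ST. Of the 19 tested genes of that list, 13 lay above 0, 2 were higher and 0 lower at an unadjusted p below 0.05, and the median was 0.51. Their part in the values of the chaperone genes was not tested.

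Averaged over both sera, a comparison added after the data were seen, 6 of the 10 genes were higher in TASTPM at an unadjusted limma p below 0.05, where 2.63% of all tested genes were. Hsph1 was at 1.28 with a standard error of 0.28 and Hsp90ab1 at 0.58 with a standard error of 0.13 on the log2 scale (limma adjusted p = 0.446 for both). The two-sided exact permutation test within sera gave p = 0.00286 for Hsp90ab1 and p = 0.00429 for Hsph1, over 1400 splits. Limma and edgeR called 0 of the 10 genes (0% of all tested genes with either), while DESeq2, which called 0.087% of all tested genes, called Hsph1 with a log2 fold change of 1.20 and an adjusted p of 0.0226. At an unadjusted p below 0.05, 5 genes were higher with edgeR and 7 with DESeq2, where 2.31% and 2.7% of all tested genes were. DESeq2 also gave Hsp90ab1 an adjusted p of 0.0110, at 0.58 on the log2 scale, below the fold needed for a call. Hsp90aa1 had 0.60, Hspe1 0.54, Hspd1 0.48, Hspa8 0.42, Dnajb1 0.32, Hspa5 0.19, Hspa1b 1.12 and Hspa1a 1.55, which was 0.36 without WT Control ST library 3. When the 4 libraries with high Lyz2 were left out, the 5 TASTPM libraries lay above the 5 WT libraries for 2 of the 10 genes, where 0.546% of all tested genes did. These were Hsph1, at 844 to 1621 against 133 to 512 normalized counts, and Hsp90ab1, at 10462 to 15473 against 8169 to 10416. Of the 19 tested genes of the immediate early list, 17 lay above 0 over both sera, with a median of 0.54 against 0.02 over all tested genes. At an unadjusted limma p below 0.05, 3 were higher and 1 lower, where 333 and 259 of the 12645 tested genes were. The part of this list in the chaperone values was not tested.

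**Figure D3:**
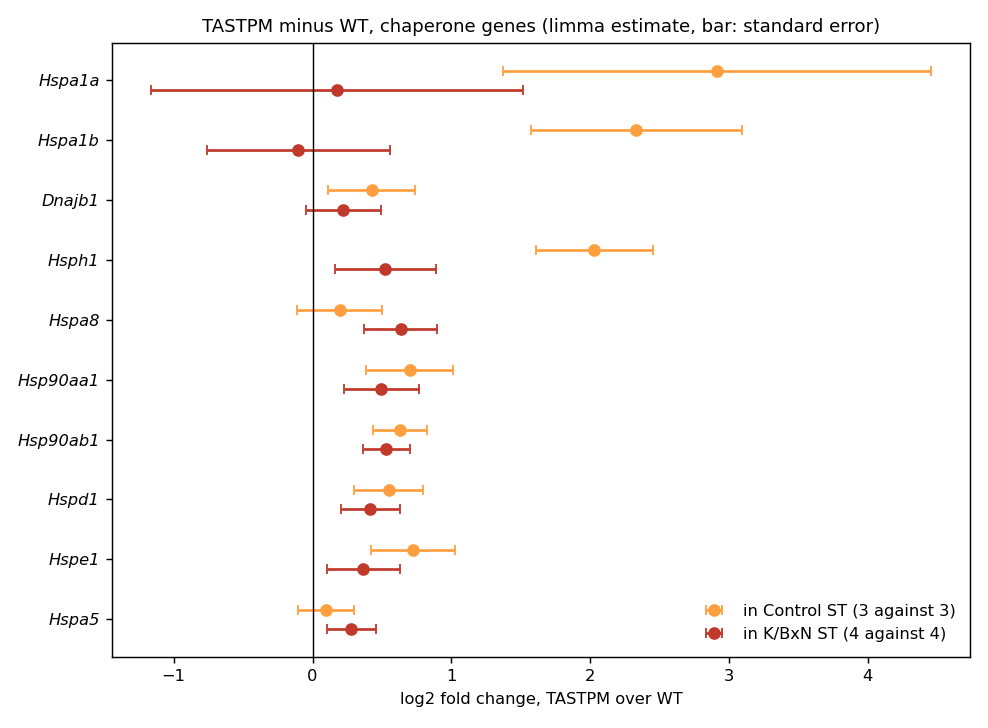
Log2 fold change of TASTPM over WT for each chaperone gene with its standard error from limma, in Control ST and in K/BxN ST. In Control ST all 10 estimates lie above 0, between 0.10 and 2.92, and in K/BxN ST 9 do, with Hspa1b at -0.10.

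The next question was whether arthritis changed chaperone genes in microglia of either genotype. In WT, 6 of 10 genes had a positive and 4 a negative log2 fold change for K/BxN ST against Control ST, with a median of 0.05 against 0.06 over all tested genes, and without WT Control ST library 3 it was 3 positive and 7 negative. Hspa5 had -0.45 with a standard error of 0.19 (limma adjusted p = 0.684) and was the 1 gene lower at an unadjusted p below 0.05, where 2.36% of all tested genes were. It was also the 1 gene lower without overlap, where 3.71% of all tested genes were (p = 0.0286 by two-sided exact permutation, which is as low as 4 against 3 libraries can go). Without the 2 WT libraries with high Lyz2, and the 2 of TASTPM, its log2 fold change was -0.38 and that of Hsph1 0.71. Hsph1 had 0.87 with a standard error of 0.39 (limma adjusted p = 0.686) and was the 1 gene higher at an unadjusted p, where 4.77% of all tested genes were. Without WT Control ST library 1, which had 133 counts, the value for Hsph1 was 0.29. Limma, edgeR and DESeq2 called 0 of the 10 genes in WT, where limma called 0.00791%, edgeR 0% and DESeq2 1% of all tested genes. With edgeR and with DESeq2, Hspa5 was the 1 gene at an unadjusted p below 0.05, where 2.01% and 2.47% of all tested genes were lower.

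In TASTPM, 9 of 10 genes had a negative log2 fold change for K/BxN ST against Control ST, with a median of -0.27 against 0.01 over all tested genes, and without TASTPM Control ST library 3 it was 6, with Hspa1a at 0.10, Dnajb1 at 0.07 and Hspd1 at 0.02. None reached an unadjusted limma p below 0.05, where 2.62% of all tested genes were higher and 1.6% lower, and limma, edgeR and DESeq2 called none of the 10 genes (0%, 0% and 0.127% of all tested genes). With edgeR and with DESeq2, Hspa1b was the 1 gene lower at an unadjusted p below 0.05, where 1.32% and 1.53% of all tested genes were. Hspa1b had -1.39 (standard error 0.71, limma adjusted p = 0.964), and -0.62 without TASTPM Control ST library 3. Hsph1 had -0.64 (standard error 0.39) and was the gene lower without overlap, at 538 to 1043 against 1053 to 1621 normalized counts, where 2.74% of all tested genes lay lower without overlap (two-sided exact permutation test, p = 0.0571). Hspa5 had -0.26, and Hspa8, the gene with a positive value, had 0.31. For Hspa5, TASTPM Control ST library 1 had 37337 normalized counts. The other libraries of that group had 22650 and 24965, within the 21368 to 26031 of TASTPM K/BxN ST. Without the libraries with high Lyz2 the values were -1.89 for Hspa1b, -0.38 for Hsph1, -0.23 for Hspa5 and 0.09 for Hspa8. Both serum comparisons share no library, but each shares its groups with a comparison of genotypes.

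The difference of the serum effects between genotypes was negative for Hsph1, at -1.51 with a standard error of 0.56, and for Hspa1b, at -2.44 with a standard error of 1.01. For both genes the limma adjusted p was 0.999. These were 2 of 10 genes lower at an unadjusted p, where 1.63% of all tested genes were, and 0 of 10 were higher, where 1.42% of all tested genes were. Limma, edgeR and DESeq2 called 0 of the 10 genes (0%, 0% and 0.0949% of all tested genes). With edgeR and with DESeq2, 2 were lower at an unadjusted p below 0.05, where 1.53% and 1.77% of all tested genes were. Without the libraries with high Lyz2 the values were -1.08 for Hsph1 and -2.08 for Hspa1b. Hspa1a had 1.84 in WT and -0.90 in TASTPM, with a difference of -2.74 (standard error 2.04), and without WT Control ST library 3, which had no Hspa1a read, it had -0.53 in WT with a difference of -0.37 (standard error 1.32). Dnajb1, Hspd1 and Hspe1 had 0.09, 0.08 and 0.02 in WT and -0.11, -0.05 and -0.33 in TASTPM, and without the same library the WT values were -0.29, 0.06 and -0.12. For Hspa5 the difference was 0.18 (standard error 0.27). This difference and the average that follows include TASTPM Control ST library 1, with 37337 normalized counts against 22650 and 24965 in the others of its group. Averaged over both genotypes, which was added after the data were seen, Hspa5 was at -0.36 on the log2 scale for K/BxN ST, with a standard error of 0.13 (limma adjusted p = 0.536). It was the 1 of 10 genes lower at an unadjusted p below 0.05, where 3.46% of all tested genes were, and limma, edgeR and DESeq2 called 0 of the 10 (0%, 0% and 1.42% of all tested genes). With edgeR and with DESeq2 it was again the 1 gene lower at an unadjusted p below 0.05, where 2.76% and 3.49% of all tested genes were. Without the libraries with high Lyz2 its value was -0.31.

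**Figure D4:**
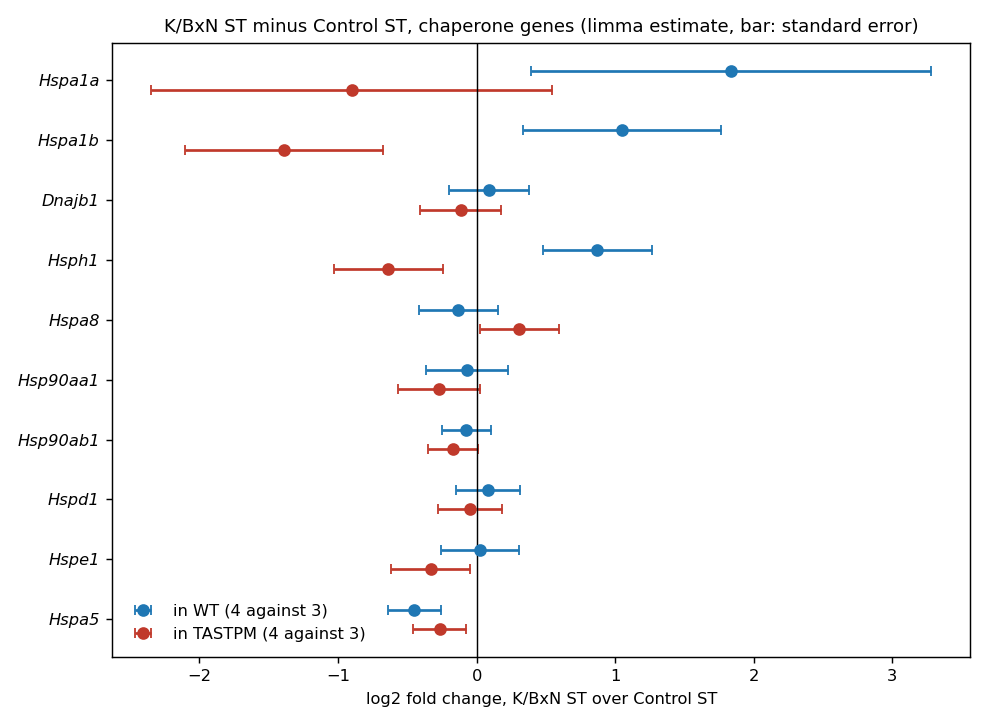
Log2 fold change of K/BxN ST over Control ST for each chaperone gene with its standard error from limma, in WT and in TASTPM. Hspa5 lies below 0 in both genotypes (-0.45 and -0.26), whereas Hsph1 lies above 0 in WT and below 0 in TASTPM (0.87 and -0.64). The TASTPM value of Hspa5 includes Control ST library 1, with 37337 normalized counts against 22650 and 24965 in the other Control ST libraries.

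The 10 genes did not vary as a single block. Over the 14 libraries, on log2 values, the Pearson r of the 45 pairs of genes had a median of 0.44, and 19 pairs were above 0.5. These values are descriptions, since the libraries share groups and depth. The highest r joined Hsp90aa1 with Hspe1, at 0.89 (Spearman rho 0.83), and Hsp90aa1 with Hspd1, at 0.83 (rho 0.75). Hspa1a went with Dnajb1 at 0.79 (rho 0.61) and with Hspa1b at 0.73 (rho 0.59). For Hspa5 the r was -0.05 to Hspa1a (rho 0.20), -0.01 to Hspa1b (rho -0.10) and at most 0.45 to any other member. In the 10 libraries with low Lyz2 these values were 0.12 to Hspa1a and 0.25 to Hspa1b, and its r to Hspa8 was 0.73 against 0.29 in all 14.

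**Figure D5:**
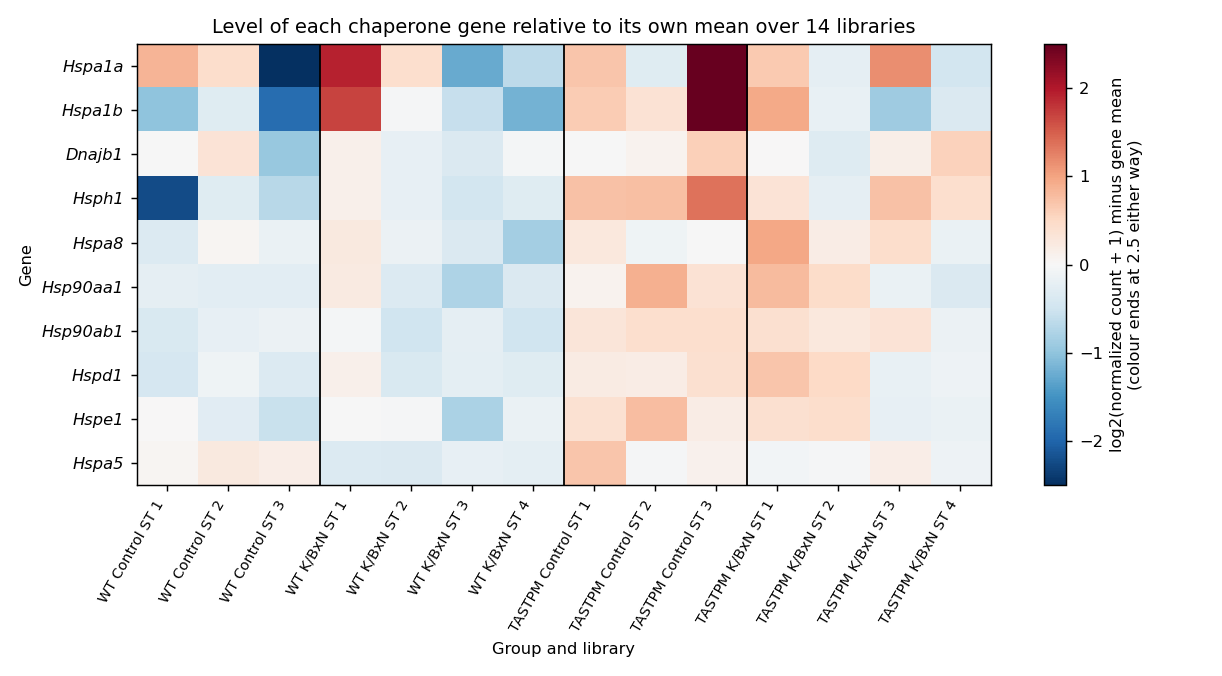
Level of each chaperone gene in each library as log2(normalized count + 1) minus the mean of that gene over the 14 libraries, with red above and blue below that mean. Hsph1, Hsp90ab1, Hspd1 and Hspe1 are red in all 3 TASTPM Control ST libraries, while Hspa5 is blue in the 4 WT K/BxN ST libraries.

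Among all other tested genes, those most like the mean standardized profile of the 10 members were Dnaja1, with r = 0.87 over 14 libraries and 0.90 over the 10 with low Lyz2, Ptges3, with 0.86 and 0.84, and Stip1, with 0.83 and 0.82. Dnaja1 is an HSP40 cochaperone, Ptges3 encodes the HSP90 cochaperone p23, and Stip1 encodes HOP, which bridges HSP70 and HSP90. For Hspa1a and Hspa1b together the most alike were Fzr1, with 0.86, Dnaja1, with 0.85, and Mrpl1, with 0.82.

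Further genes of the pathway were described from lists. Of the 28 tested genes for cytosolic heat shock factors and HSP70 or HSP90 cochaperones, 22 lay above 0 for TASTPM against WT in Control ST, where 53.2% of all tested genes did, with a median of 0.29 against 0.04. At an unadjusted limma p below 0.05, 5 were higher and 0 lower, where 3.41% and 2.16% of all tested genes were. Fkbp5, an HSP90 cochaperone and a known target of the glucocorticoid receptor, was singled out after its values were seen. It had 6738, 6540 and 8013 normalized counts in TASTPM Control ST and 2151, 1013 and 954 in WT Control ST. In K/BxN ST it had 4349, 4345, 12172 and 10633 in TASTPM and 1470, 1225, 4392 and 3800 in WT. The TASTPM libraries ranged from 4345 to 12172 and the WT libraries from 954 to 4392, with all but 2 TASTPM libraries above every WT library. These 2 were the TASTPM libraries with high Lyz2, and the WT libraries with high Lyz2 had 1470 and 1225. Without the libraries with high Lyz2 the ranges were 6540 to 12172 and 954 to 4392. In Control ST the difference was 2.47 on the log2 scale with a standard error of 0.52 (limma adjusted p = 0.383), where DESeq2 gave an adjusted p of 0.00199. With serum, 16 of the 28 genes lay above 0 in WT and 9 in TASTPM, where 54% and 50.4% of all tested genes did. Their medians were 0.08 and -0.24, against 0.06 and 0.01 over all tested genes. At an unadjusted limma p below 0.05 none passed in WT, where 4.77% of all tested genes were higher and 2.36% lower. In TASTPM 1 was higher and 1 lower, where 2.62% and 1.6% of all tested genes were. In these comparisons the smallest p of this list belonged to Dnaja2, an HSP40, in WT (0.41, limma adjusted p = 0.698) and to Stub1, the ubiquitin ligase CHIP, in TASTPM (1.00, limma adjusted p = 0.964).

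Of the 24 tested ER chaperone and unfolded protein response genes, 20 lay below 0 in WT for the effect of K/BxN serum, where 54% of all tested genes lay above 0, with a median of -0.27 against 0.06. In TASTPM 15 lay below 0, where 50.4% of all tested genes lay above 0, with a median of -0.18 against 0.01. At an unadjusted limma p below 0.05, 2 were lower in each genotype, where 2.36% of all tested genes were in WT and 1.6% in TASTPM, and 0 were higher. Manf, a secreted ER stress protein, had -0.58 in WT (limma adjusted p = 0.642), and Ddit3, the stress transcription factor CHOP, had -1.21 in TASTPM (limma adjusted p = 0.964). For TASTPM against WT in Control ST the ER list had a median of -0.05, with 0 genes at an unadjusted p below 0.05 in either direction.

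The 10 further mitochondrial chaperones and proteases had 0 genes at an unadjusted limma p below 0.05 in either serum comparison or in either genotype comparison within a serum. Their median was 0.07 for TASTPM against WT in Control ST, where Hspd1 and Hspe1 had 0.55 and 0.72. Trap1, the mitochondrial HSP90, had the smallest p of that list with serum, at 0.62 in WT and 0.58 in TASTPM. Of the 14 genes of the CCT chaperonin and prefoldin, which fold actin and tubulin, 10 had a positive value for TASTPM against WT in Control ST and 13 in K/BxN ST, where 53.2% and 49.9% of all tested genes did, with medians of 0.16 and 0.18 against 0.04 and -0.00087. At an unadjusted limma p below 0.05, 1 was higher in each, where 3.41% and 1% of all tested genes were. With serum 11 of the 14 were positive in WT and 11 in TASTPM, where 54% and 50.4% of all tested genes were, and the smallest p belonged to Pfdn2 in WT (0.60) and Cct8 in TASTPM (0.50). In TASTPM K/BxN ST, Cct8 had 7031 and 6001 normalized counts in the libraries with high Lyz2 and 3742 and 3729 in the others. It had 4475, 3713 and 2539 in TASTPM Control ST. limma called no gene of these 4 lists in any comparison.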

How the data were processed

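The authors aligned reads with HISAT2 2.1 to GRCm39 (mm39), counted them with featureCounts 1.5.2, and deposited normalized counts, a signal in which the reads of a gene are divided by 1 factor per library. FastQC 0.11.9, Picard and DESeq2 are also in the submitters' processing notes, and the multi-mapping and strand settings are not given in the sources used here. All deposited values above 0 came out as whole reads (100%, tolerance 0.1 read) when divided by the step of their library. Of 14336 entries, 7 repeated identifiers were left out. Columns joined to sample labels number 4, the other 10 were joined by the group in their header because their replicate names differ from the labels, and 0 value columns were unused.

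Fits used log2(value + 1), on which the fold change of a low gene depends on the 1 that is added. For a gene to be tested, 7 libraries needed 10 reads or more (12645 genes), and the test was limma 3.58.1 (R 4.3.3, trended prior variance, 1 fit of 4 groups). Calls needed a Benjamini-Hochberg adjusted p below 0.05 and an absolute log2 fold change above 1. Because the deposited unit is a signal, edgeR 4.0.16 and DESeq2 1.42.0 on recovered reads were alternatives. Single genes were also tested by two-sided exact permutation. The limma step was checked on simulated data for WT K/BxN ST against WT Control ST.

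The members and lists were chosen with earlier results of these data known. Named genes are all members, the gene of smallest p per list and serum comparison, any gene called, and the 3 most alike. Promoters start at the GENCODE M39 canonical transcript, later than the authors' annotation. Transcript lengths are of the same transcripts. The read totals set the precision, and floors cover counting error alone. A further element of the TASTPM genotype is not reported here.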

Additional observations from a re-analysis of the deposited data

Results flagged for a closer look

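The serum effect in TASTPM minus that in WT was -1.51 on the log2 scale for Hsph1 and -2.44 for Hspa1b, the 2 members for which this difference had an unadjusted limma p below 0.05 (0.0162 and 0.0293). For Hsph1 the mean was lowest in WT Control ST and highest in TASTPM Control ST, with the means of both K/BxN ST groups between them. Neither difference passed adjustment over all genes (limma adjusted p = 0.999 for both). Without TASTPM Control ST library 3 the difference for Hspa1b was -1.67, and without WT Control ST library 1 that for Hsph1 was -0.93. In the groups of 4 libraries, 20 in all over the 10 genes, no library stood apart by Dixon's test with a critical value of 0.829, where chance gives about 1 in 20 groups. The Control ST groups, with 3 libraries each, were not tested in this way, so the test says nothing of their libraries.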

How the results depend on the processing

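The number of chaperone genes called was 0 in each of the 7 comparisons under the alternatives run, except with DESeq2, which called 1 gene (Hsph1) in TASTPM Control ST against WT Control ST and 1 (Hsph1) over both sera. The number higher in TASTPM at an unadjusted p below 0.05 ranged from 3 to 6 in Control ST, from 1 to 4 in K/BxN ST and from 5 to 7 over both sera when 1 library was left out. Of the 12645 tested genes, 327 to 675, 72 to 187 and 272 to 512 were higher in these fits. In K/BxN ST it was 1 with only the 2 groups compared, 4 with the myeloid marker score as covariate and 1 with the sex-linked score, which gave 7 in Control ST and 8 over both sera. Among all tested genes 163, 223, 140, 441 and 374 were higher, in the same order. Of 41 log2 fold changes of single genes followed through the alternatives, 3 changed sign under some alternative, each for TASTPM against WT. The 41 do not hold the serum values that changed sign above without 1 library. Those were Hspa1a, Dnajb1 and Hspe1 in WT and Hspa1a, Dnajb1 and Hspd1 in TASTPM. Hspa1a in K/BxN ST was -0.23 with edgeR, -0.21 with DESeq2 and -0.57 with the sex-linked score, and ranged from -0.28 to 0.78 with 1 library left out. Hspa1b in K/BxN ST was 0.25 without the libraries with high Lyz2, and ranged from -0.49 to 0.47 with 1 library left out. Hspa5 in Control ST ranged from -0.12 to 0.24. The causes were not tested.

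No paired analysis was possible because each library has a number of its own and no number is shared between groups. Depth limits Hspa1a, which had 0 reads in 1 library. Over all genes DESeq2 called 127 in WT with serum, where limma called 1, and 16 in TASTPM with serum, 12 for the difference between genotypes, 41 in Control ST, 11 over both sera and 179 with serum over both genotypes, where limma called 0.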
